A study of Mus musculus with 33 samples.

Results

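The 3 libraries labelled E11.5 were compared with the 3 libraries labelled E12.5, across all genes of the table, in a series on the frontal bone of the mouse skull vault. These 6 of 33 libraries are identified by their column names, and the pair of stages was chosen with earlier results of these data known. The series holds 3 libraries at each of 11 stages, spaced at 0.5 days between E8.5 and E12.5 and followed by E13.5 and E14.5. The labels give the tissue, polyA RNA and the embryonic day of each library, and name no strain, genotype, treatment or sex. They do not say whether libraries came from separate embryos, pools or a single preparation, so a p-value reflects the spread among these libraries alone, which may be technical. The question was which tissues and which maturation genes stood further along their later course in the E11.5-labelled libraries, although their label is the earlier one, and which did not.

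The frontal bone forms without a cartilage model. Cranial mesenchyme condenses, Runx2 and then Sp7 commit its cells to the osteoblast lineage, and osteoblasts then lay down collagen I, osteopontin (Spp1) and bone sialoprotein (Ibsp). Around that mesenchyme lie the skin, the meninges and the forebrain, and the region also holds vessels, blood, nerves, muscle precursors and, at the skull base, cartilage. Each of these tissues passes its own milestones over the same days, among them the change of red cells from embryonic to adult globins and of surface epithelium from simple to stratifying keratins.

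Levels are CPM, counts scaled to a common library total and for library composition, and are given per library in the order a, b, c of the column names. A log2 fold change is E11.5-labelled over E12.5-labelled and carries an approximate standard error from edgeR's quasi-likelihood model of all 33 libraries, with n = 3 libraries a stage. After a fold change ± gives that standard error, and after a mean CPM or ratio it gives the SD of 3 libraries. Genes were called at p below 0.05 after Benjamini-Hochberg adjustment over the 20073 genes tested, which is meant by passing, and "higher", "lower", "rose" and "fell" are used only of genes that passed. Column totals were 14988896 to 17232711 counts in the E11.5-labelled libraries and 16004817 to 18061930 in the E12.5-labelled libraries. The root mean square difference in log2 CPM was 0.407 to 0.417 between E11.5-labelled libraries, 0.439 to 0.468 between E12.5-labelled libraries, and 0.675 to 0.712 across the labels. By stage means, the E11.5-labelled libraries lay nearest to E11 (0.588) and E12.5 (0.595), further from E13.5 (0.837) and furthest within E11 to E13.5 from E12 (1.18). The E12.5-labelled libraries were also further from E12 (1.01) than from E13.5 (0.934). Ribosomal protein genes took 2.56% to 2.65% of counts in the E11.5-labelled and 3.05% to 3.34% in the E12.5-labelled libraries, and the part of this gap in the results was not tested. The E12 libraries a, b and c were uneven, with 9.09%, 6.89% and 4.51% of counts in these genes. Globins took 2.42%, 2.04% and 1.10% of their counts. Levels at E12 given below carry this limit, and its part in them was not tested.

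The samples held much besides bone. The 12 neural progenitor markers together summed to 1654 to 1706 CPM in the E11.5-labelled and 2021 to 2193 CPM in the E12.5-labelled libraries, more than the 14 tested bone matrix markers, which summed to 1257 to 1302 and 897 to 1025 CPM. Late osteoblast genes were close to absent, with 0 counts of Mepe in all 6 libraries and 0 and 3 counts of Bglap2 in the E11.5-labelled and E12.5-labelled libraries together. In bulk RNA such as this, more cells of a type and more RNA per cell cannot be told apart.

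Of the 20073 genes tested, 2471 (12.3%) were higher and 3054 (15.2%) were lower in the E11.5-labelled libraries, and the median log2 fold change over all genes was -0.05. Large changes ran mostly upwards. At least 2-fold, 1162 genes were higher and 232 lower, and at least 4-fold, 349 were higher and 58 lower. The balance of the smaller changes depended on scaling: with library totals alone the median moved by 0.12 and 3089 genes were higher against 1698 lower, that is 64.5% of calls higher in place of 44.7%. No gene passed in opposite directions under any setting tried.

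Genes that rise later were more often higher and genes that fall later more often lower. Between E10.5 and E14.5, stages outside the comparison, 4200 genes (20.9% of those tested) rose and 2432 (12.1%) fell at least 2-fold. Of the rising genes, 936 (22.3%) were higher and 193 (4.6%) lower in the E11.5-labelled libraries, with a median log2 fold change of 0.29. Of the falling genes, 355 (14.6%) were higher and 814 (33.5%) lower, with a median of -0.22. Among the 13441 genes with no such course, 8.78% were higher and 15.2% lower. The 301 genes whose estimate at E14.5 was over 64-fold that at E10.5, whether or not they passed, had a median of 1.21, and 39.2% of them were higher. The falling side is uneven. Of the 188 genes whose estimate dropped over 16-fold, again without regard to a call, 23.4% were higher and 20.7% lower, and with E11 in place of E10.5 as the start, 653 of 2054 falling genes were higher and 314 lower.

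Which tissues carry the difference is seen from 45 lists of marker and state genes. For each list, its members' mean log2 CPM places the E11.5-labelled libraries on the step from the E12.5 mean to the E13.5 mean, where 0% is the level at E12.5 and 100% the level at E13.5. In 35 lists that step was at least 0.5 log2 CPM, and it shares the E12.5 libraries with the comparison itself. The ranges below run over the 3 E11.5-labelled libraries with both stage means held fixed. They leave out the spread of the E12.5 and E13.5 libraries, so the places are less certain than the ranges are narrow. Synapse genes lay past E13.5 (139.6% to 140.3% in the 3 libraries), as did DNA replication genes (108.7% to 113.6%), which fall with age. The synapse list does not rise steadily with stage, at a mean log2 CPM of 4.85 at E11 and 3.51 at E14.5. Cartilage matrix lay at 77.7% to 80.1%, embryonic globins at 77.4% to 80.8%, bone matrix at 50.8% to 53.5% and meninges at 49.3% to 51.6%. Fibrous matrix (30.1% to 32.3%), stratifying epidermis (26.0% to 29.3%) and muscle (19.0% to 24.4%) had covered less of their step. Macrophages (3.57% to 13.8%) lay close to E12.5, and simple epithelium (-13.8% to -5.87%) and tendon (-13.3% to -5.35%) lay on its other side.

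**Figure D1:**
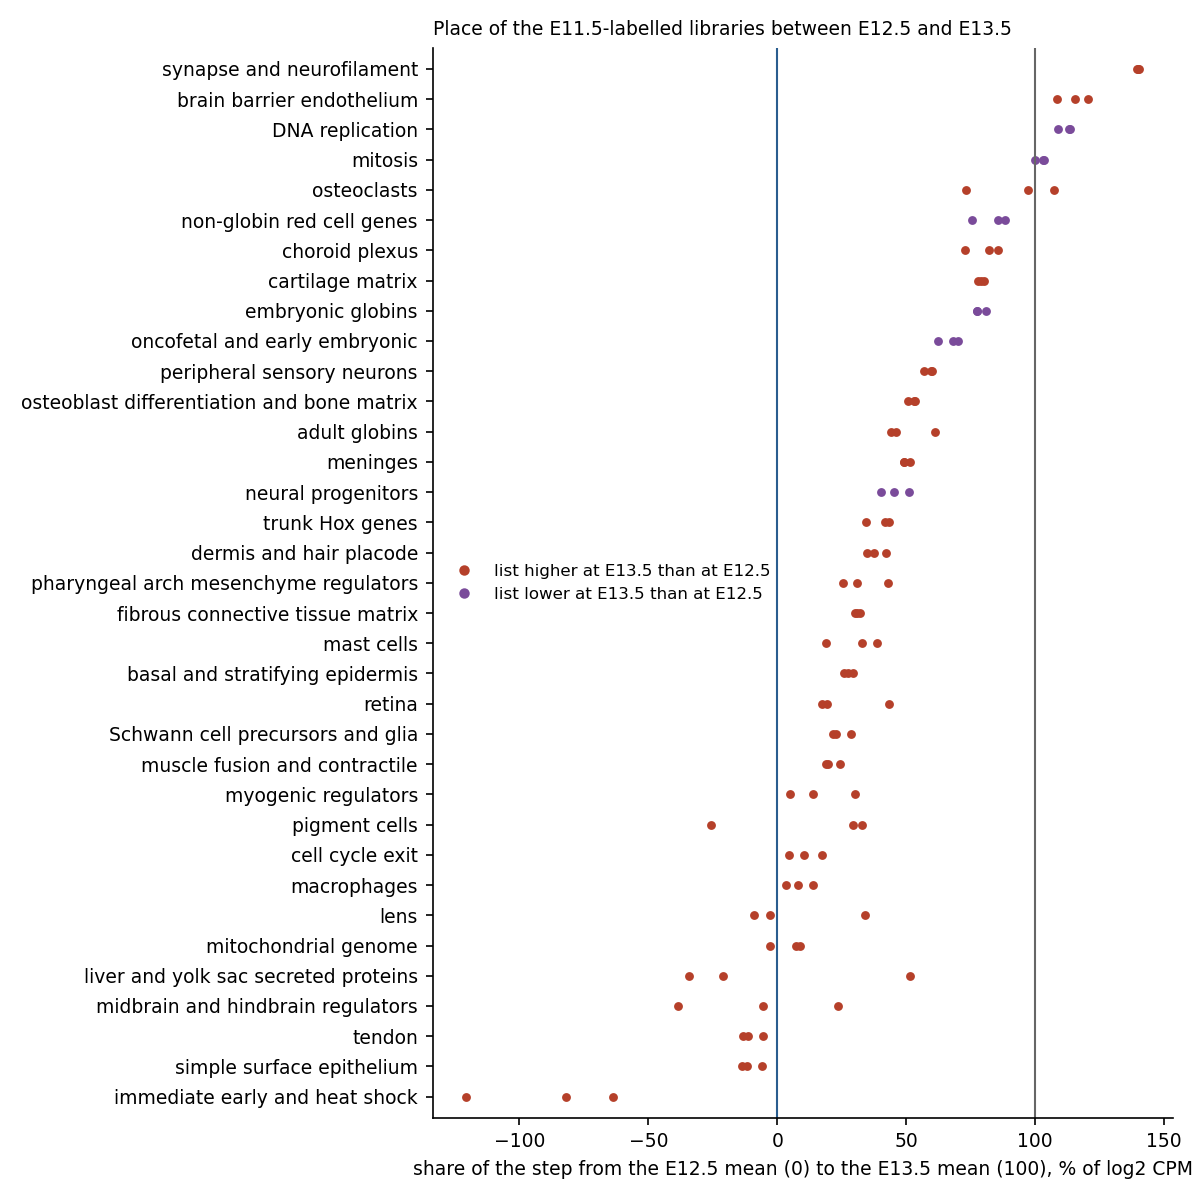
Place of each E11.5-labelled library on the step of a list's mean log2 CPM from E12.5 (0) to E13.5 (100), in percent, for the 35 lists whose step was at least 0.5. Points are the 3 libraries, in red for lists higher at E13.5 and purple for lists lower at E13.5. Both stage means are held fixed, so their own spread is not shown. Synapse genes lie near 140 and macrophages between 3.57 and 13.8.

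**Figure D2:**
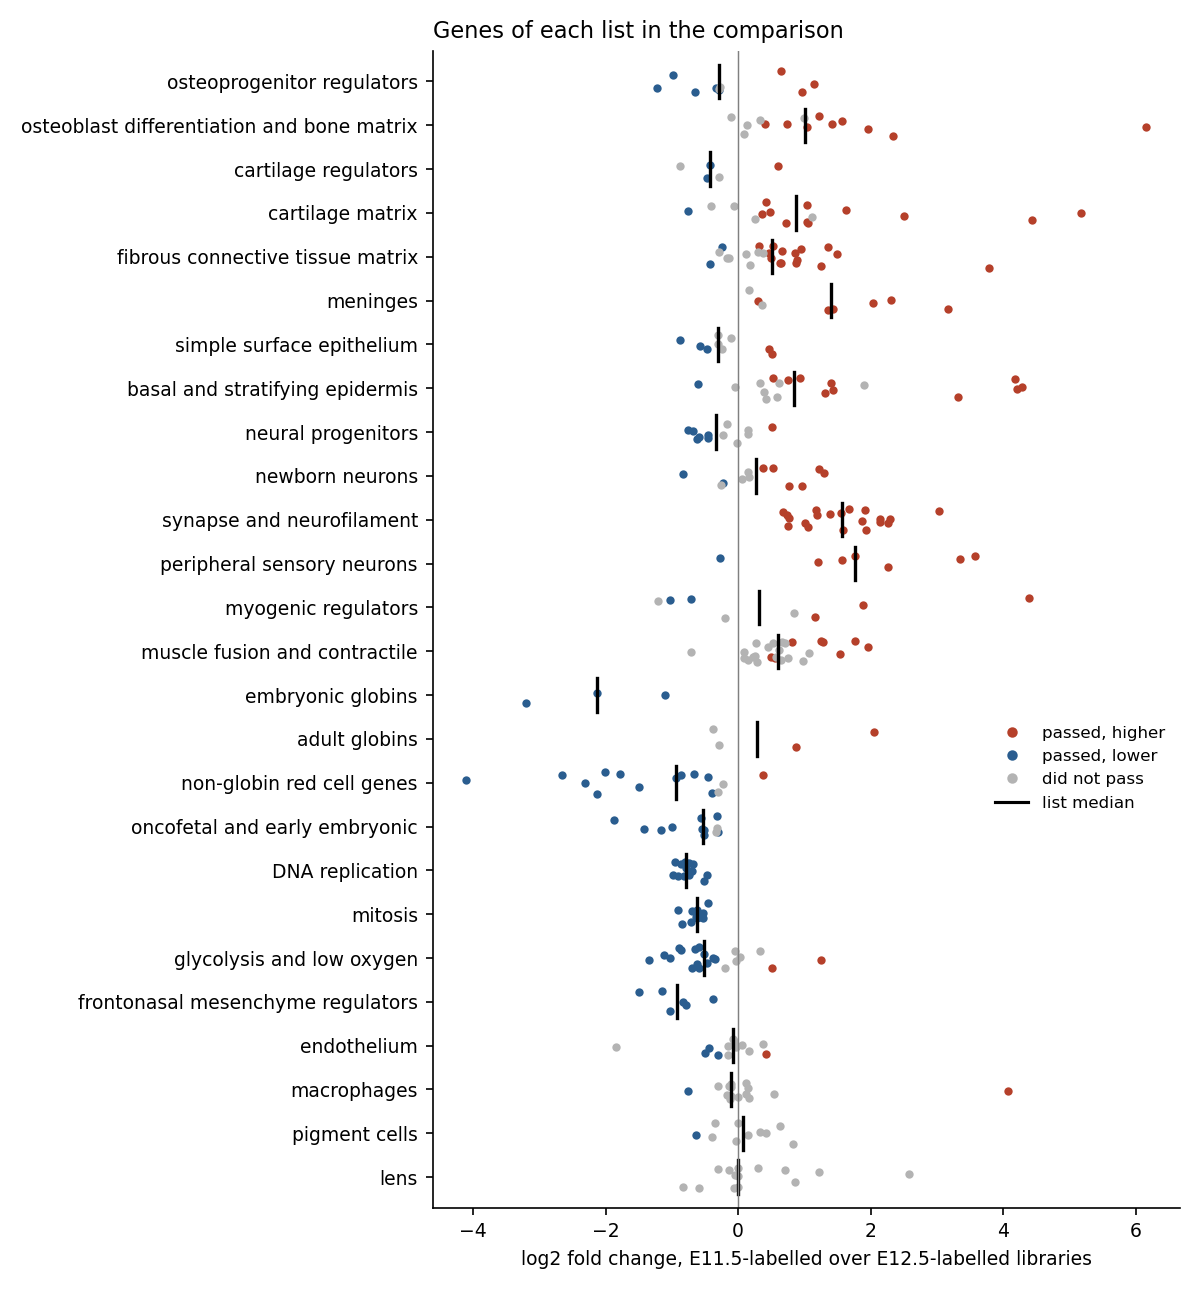
Log2 fold change, E11.5-labelled over E12.5-labelled, of every tested gene in 26 lists. Each point is a gene, coloured by whether it passed higher, passed lower or did not pass, and black bars are list medians. Matrix, epidermal, neuronal and meningeal genes lie to the right, with bone matrix at a median of 1.02. Replication, embryonic globin and frontonasal genes lie to the left.

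The start regions of 3 genes are shown because their changes carry the contrasts described below: Ibsp and Matn1, the bone and cartilage genes with the largest rises among genes that reached 5 CPM, and Hba-x, the embryonic alpha globin. Each is the 250 bases before the RefSeq start in GRCm38.p6, 5′ to 3′ on the gene's strand, which is the plus strand in all 3. They lie at chr5:104299037-104299286 (Ibsp), chr4:130944135-130944384 (Matn1) and chr11:32276350-32276599 (Hba-x). The gene coordinates given further below come from the GENCODE annotation, in which the starts of Ibsp and Hba-x lie inside these windows. Motif positions are counted from the RefSeq start. Capitals mark matches, on either strand, to 4 motifs: the TATA box TATAAA, the box CCAAT bound by NF-Y, the core TGTGGT bound by RUNX factors and the core CACCC bound by KLF factors.
Ibsp: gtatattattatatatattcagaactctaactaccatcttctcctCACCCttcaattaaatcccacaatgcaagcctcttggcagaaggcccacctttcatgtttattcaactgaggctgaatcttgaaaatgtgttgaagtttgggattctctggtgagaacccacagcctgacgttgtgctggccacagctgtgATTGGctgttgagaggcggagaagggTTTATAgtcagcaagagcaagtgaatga
Matn1: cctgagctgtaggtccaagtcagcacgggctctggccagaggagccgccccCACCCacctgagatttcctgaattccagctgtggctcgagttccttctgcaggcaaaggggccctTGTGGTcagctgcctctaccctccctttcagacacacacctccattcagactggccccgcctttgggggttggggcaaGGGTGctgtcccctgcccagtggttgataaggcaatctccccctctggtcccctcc
Hba-x: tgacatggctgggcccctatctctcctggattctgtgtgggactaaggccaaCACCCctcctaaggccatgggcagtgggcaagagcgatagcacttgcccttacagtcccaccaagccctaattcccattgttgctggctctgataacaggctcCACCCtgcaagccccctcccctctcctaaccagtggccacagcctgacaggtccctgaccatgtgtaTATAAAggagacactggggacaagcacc
TATAAA matched on the opposite strand in Ibsp and on the gene's own strand in Hba-x, with its leftmost base 28 bases before the start in both. CCAAT matched in Ibsp on the opposite strand, with its leftmost base 54 before the start. TGTGGT matched only in the Matn1 window, on the gene's strand, 134 before the start, and CACCC matched in all 3. No match overlapped another. Of 32851 mouse promoter windows of this length, 12.4% held TATAAA, 33.8% CCAAT, 14.05% TGTGGT and 52.0% CACCC.

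Most genes of osteoblast differentiation and bone matrix, Sp7 among them, were higher, while most osteoprogenitor regulators were not. Of 14 tested genes of osteoblast differentiation and bone matrix, 9 rose and 0 fell, with a median of 1.02. Of 10 osteoprogenitor regulators, 3 rose and 5 fell, with a median of -0.29. The rises included the transcription factor Sp7 and mineral-binding Ibsp, and did not include Alpl, the phosphatase that frees phosphate for mineral.

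Ibsp (chromosome 5, 104299171 to 104311469) had 14.52, 15.8 and 15.0 CPM in the E11.5-labelled libraries, against 0.115, 0.260 and 0.237 CPM in the E12.5-labelled libraries. The groups are far apart, with 849 counts in the E11.5-labelled and 11 in the E12.5-labelled libraries. It rose by 6.15 ± 0.33 on the log2 scale (adjusted p = 3.27e-13), the largest rise among genes that reached 5 CPM. Its level then stood at 67.9 ± 2.71 CPM at E13.5 and 464 ± 13.7 CPM at E14.5 (mean ± SD). The E11.5-labelled libraries thus lay well below E13.5 and far above E12, where the mean was 0.0370 ± 0.0641 CPM.

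Sp7 (chromosome 15, 102356606 to 102367182), the osterix gene needed for osteoblasts, had 5.50, 5.19 and 6.26 CPM in the E11.5-labelled libraries and 1.32, 1.35 and 1.66 CPM in the E12.5-labelled libraries. Every E11.5-labelled library lay above every E12.5-labelled one, at a log2 fold change of 1.97 ± 0.20 (adjusted p = 8.85e-09). Runx2, its upstream partner, had 14.3, 12.9 and 10.6 CPM in the E11.5-labelled and 14.7, 15.3 and 16.1 CPM in the E12.5-labelled libraries, with each E11.5-labelled value just under the E12.5-labelled ones, and did not pass (-0.29 ± 0.15, adjusted p = 0.146). Spp1 had 6.02, 6.81 and 4.95 CPM in the E11.5-labelled libraries, against 2.52, 2.18 and 1.96 CPM in the E12.5-labelled libraries, and rose by 1.41 ± 0.27 (adjusted p = 0.00019). Col1a1, the main collagen of bone, had 427, 428 and 458 CPM in the E11.5-labelled libraries and 259, 239 and 293 CPM in the E12.5-labelled libraries. It rose by 0.73 ± 0.15 (adjusted p = 0.000513), still far under its 1597 ± 16.5 CPM at E13.5.

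Alpl did not pass, with 13.9, 11.3 and 12.3 CPM in the E11.5-labelled and 12.4, 9.24 and 12.6 CPM in the E12.5-labelled libraries, which overlap (0.13 ± 0.12, adjusted p = 0.442). Slc13a5 (chromosome 11, 72241989 to 72267222), a plasma membrane citrate carrier in a series whose title names citrate, was low throughout. It had 1.33, 1.36 and 0.790 CPM in the E11.5-labelled libraries, against 0.115, 0.312 and 0.237 CPM in the E12.5-labelled libraries, without overlap. It rose by 2.34 ± 0.47 (adjusted p = 0.00034) on 65 counts in the E11.5-labelled and 12 in the E12.5-labelled libraries, and later reached 16.2 ± 0.382 CPM at E14.5. The osteoblast membrane protein Ifitm5 rose by 1.57 ± 0.34 at 1.95 ± 0.322 CPM in the E11.5-labelled and 0.655 ± 0.0327 CPM in the E12.5-labelled libraries.

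Among the regulators the members that rose and fell differ in kind. The homeobox genes Dlx5 (1.14 ± 0.15) and Dlx6 (0.96 ± 0.20), which act in bone and also in ventral forebrain neurons, were higher. The skull vault homeobox genes Msx2 (-1.22 ± 0.17), Alx4 (-0.98 ± 0.18) and Msx1 (-0.65 ± 0.10) were lower. Msx2 had 7.46, 6.65 and 4.47 CPM in the E11.5-labelled libraries and 14.3, 14.02 and 14.9 CPM in the E12.5-labelled libraries, without overlap. Twist1 (-0.33 ± 0.11) and Foxc1 (-0.28 ± 0.11) completed the 5 lower genes. That count was 3 without E11.5 library b, without E11.5 library c, without E12.5 library c, with library totals alone, with no filter on low counts, or with DESeq2 or its size factors.

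Cartilage showed a similar split between its matrix and regulator lists, although Col2a1, itself a matrix gene, was counted with the regulators and fell. Of 16 tested cartilage matrix genes, 11 rose and 1 fell, with a median of 0.88. Matn1 (chromosome 4, 130944385 to 130955475), which encodes the cartilage protein matrilin 1, had 15.4, 13.3 and 11.7 CPM in the E11.5-labelled libraries, against 0.459, 0.467 and 0.949 CPM in the E12.5-labelled libraries. No library of one label came near the other, and it rose by 4.43 ± 0.30 (adjusted p = 1.2e-11). Its level of 13.48 ± 1.89 CPM (mean ± SD) in the E11.5-labelled libraries compares with 12.9 ± 3.31 CPM at E13.5. Aggrecan (Acan) had 8.27, 8.52 and 7.53 CPM in the E11.5-labelled and 1.49, 1.45 and 1.30 CPM in the E12.5-labelled libraries and rose by 2.51 ± 0.21, and matrilin 4 (Matn4) rose by 1.63 ± 0.19. Col9a3, a chain of collagen IX, rose by 1.04 ± 0.17.

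The list of cartilage regulators, Col2a1 included, moved otherwise, with 1 of 5 higher, 2 lower and a median of -0.43. Sox9, the master regulator of cartilage, had 59.5, 57.1 and 61.9 CPM in the E11.5-labelled and 79.1, 73.8 and 87.2 CPM in the E12.5-labelled libraries and fell by 0.43 on the log2 scale (adjusted p = 0.001). Col2a1, the collagen that Sox9 drives first, had 241, 255 and 254 CPM in the E11.5-labelled and 337, 329 and 375 CPM in the E12.5-labelled libraries and also fell (-0.47 ± 0.14), although its adjusted p became 0.0520 without E11.5 library a and 0.0644 without E12.5 library c, and 0.148 with library totals alone. Sox5 was higher (0.61 ± 0.16), and it is a gene of cortical neurons as well. Sox9 is also a gene of neural progenitors, of whose 12 markers 6 were lower, and the part of this in the result was not tested.

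**Figure D3:**
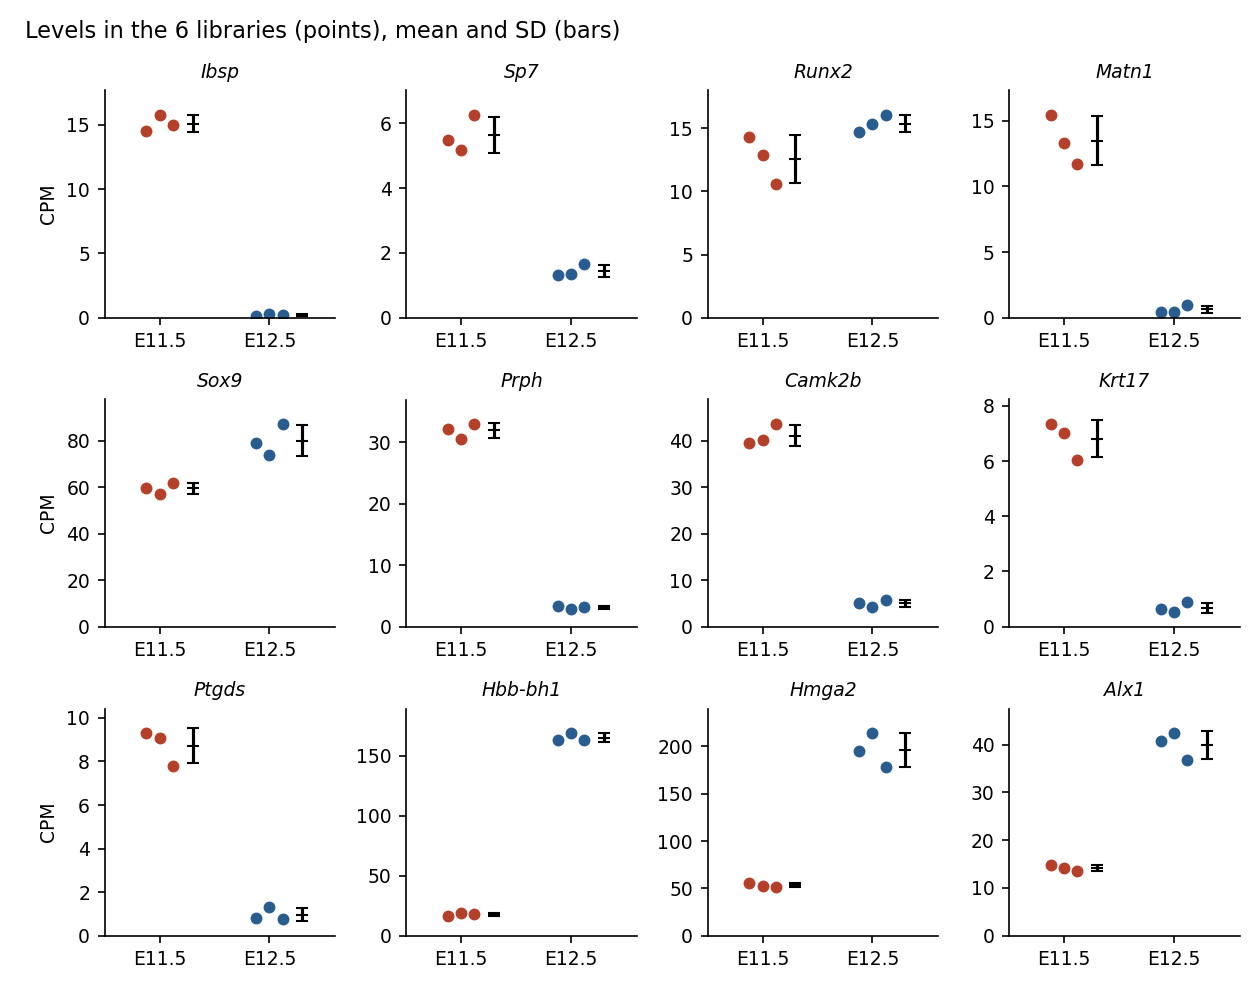
CPM of 12 genes in the 6 libraries, E11.5-labelled left in red and E12.5-labelled right in blue, with mean and SD as black bars, each panel on its own linear axis from 0. Runx2 and Sox9 do not share the direction of Ibsp, Sp7 and Matn1. Hbb-bh1, Hmga2 and Alx1 are lower in the E11.5-labelled libraries.

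Connective tissue matrix was mostly higher. Of 24 genes, 15 rose, 2 fell and the median was 0.52. Elastin (Eln) had 43.3, 42.3 and 45.3 CPM in the E11.5-labelled libraries and 22.2, 22.8 and 26.3 CPM in the E12.5-labelled libraries, without overlap, and rose by 0.88 ± 0.13 (adjusted p = 3.57e-06). The proteoglycan fibromodulin (Fmod) rose by 1.49 ± 0.23, asporin (Aspn) by 1.25 ± 0.23, periostin (Postn) by 0.95 ± 0.11 and the collagen cross-linking enzyme Lox by 0.89 ± 0.12. Col3a1, the most abundant of them, did not pass (-0.16 ± 0.09). The E13.5 mean was above that of the E11.5-labelled libraries for each of the 15 genes that rose.

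Tendon genes did not move together. Among 5 genes, 1 rose and 1 fell with a median of -0.05, and the tendon factor Scx (-0.48 ± 0.27, adjusted p = 0.196) and its target Tnmd (0.17 ± 0.17, adjusted p = 0.501) did not pass. Mkx, a tendon homeobox gene, fell by 0.99. Dermis and hair placode genes gave 4 rises and 2 falls among 8 (median 0.44), but the rises numbered 2 with no filter on low counts, without E11.5 library b, without E11.5 library c or without E12.5 library b. Of these, Wnt10b, an early signal of the hair placode, rose by 1.29 ± 0.22. Shh rose by 2.04 ± 0.19 to 5.61, 5.19 and 4.79 CPM in the E11.5-labelled libraries, against 0.803, 1.14 and 1.84 CPM in the E12.5-labelled libraries, while its mean was 77.1 ± 5.24 CPM at E10.5 and 1.31 ± 0.0434 CPM at E13.5, so its level in these samples was far higher at E10.5 than later.

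Of 8 markers of the meninges, 6 were higher and 0 lower, with a median of 1.40. Ptgds, the prostaglandin D synthase of the arachnoid, had 9.31, 9.07 and 7.79 CPM in the E11.5-labelled libraries, against 0.803, 1.30 and 0.771 CPM in the E12.5-labelled libraries. The groups do not overlap and the log2 fold change was 3.16 ± 0.29 (adjusted p = 1.33e-09). The arachnoid transporters Slc6a13 (2.31 ± 0.20) and Slc22a6 (2.04 ± 0.24) and the connexins Gjb6 (1.44 ± 0.16) and Gjb2 (1.36 ± 0.14) rose with it. Of the forkhead genes of this mesenchyme, Foxc2 (0.16 ± 0.15, adjusted p = 0.46) and Foxd1 (0.36 ± 0.17, adjusted p = 0.119) did not pass. The forkhead gene Foxc1, counted above with the osteoprogenitor regulators, was lower.

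In the skin the keratins of the basal layer rose while those of the simple epithelium did not. Of 18 genes of basal and stratifying epidermis, 10 were higher, 1 lower and the median was 0.84. Among 9 genes of simple surface epithelium, 2 were higher, 3 lower and the median was -0.31. Krt5, of the basal keratin pair, had 62.4, 64.8 and 61.6 CPM in the E11.5-labelled libraries and 21.7, 21.4 and 27.0 CPM in the E12.5-labelled libraries, and its partner Krt14 had 33.7, 34.6 and 35.9 CPM in the E11.5-labelled and 12.4, 13.03 and 13.999 CPM in the E12.5-labelled libraries. Neither overlaps, and they rose by 1.43 ± 0.19 (adjusted p = 1.33e-06) and 1.40 ± 0.17 (adjusted p = 1.76e-07). Krt17, a keratin of periderm and skin appendages, rose by 3.32 ± 0.34, at 7.35, 7.01 and 6.05 CPM in the E11.5-labelled and 0.631, 0.519 and 0.890 CPM in the E12.5-labelled libraries.

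The suprabasal keratin Krt10 did not pass (-0.04 ± 0.24, adjusted p = 0.921), with 8.39, 5.75 and 7.63 CPM in the E11.5-labelled and 8.09, 7.11 and 7.18 CPM in the E12.5-labelled libraries. Of the simple keratins, Krt8 fell by 0.58 (adjusted p = 0.00113) and Krt18 did not pass (-0.31 ± 0.15). The tight junction gene Cldn6 fell by 0.88. At E13.5 Krt5 stood at 410.4 ± 41.3 CPM, so the E11.5-labelled libraries were early on this course.

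**Figure D4:**
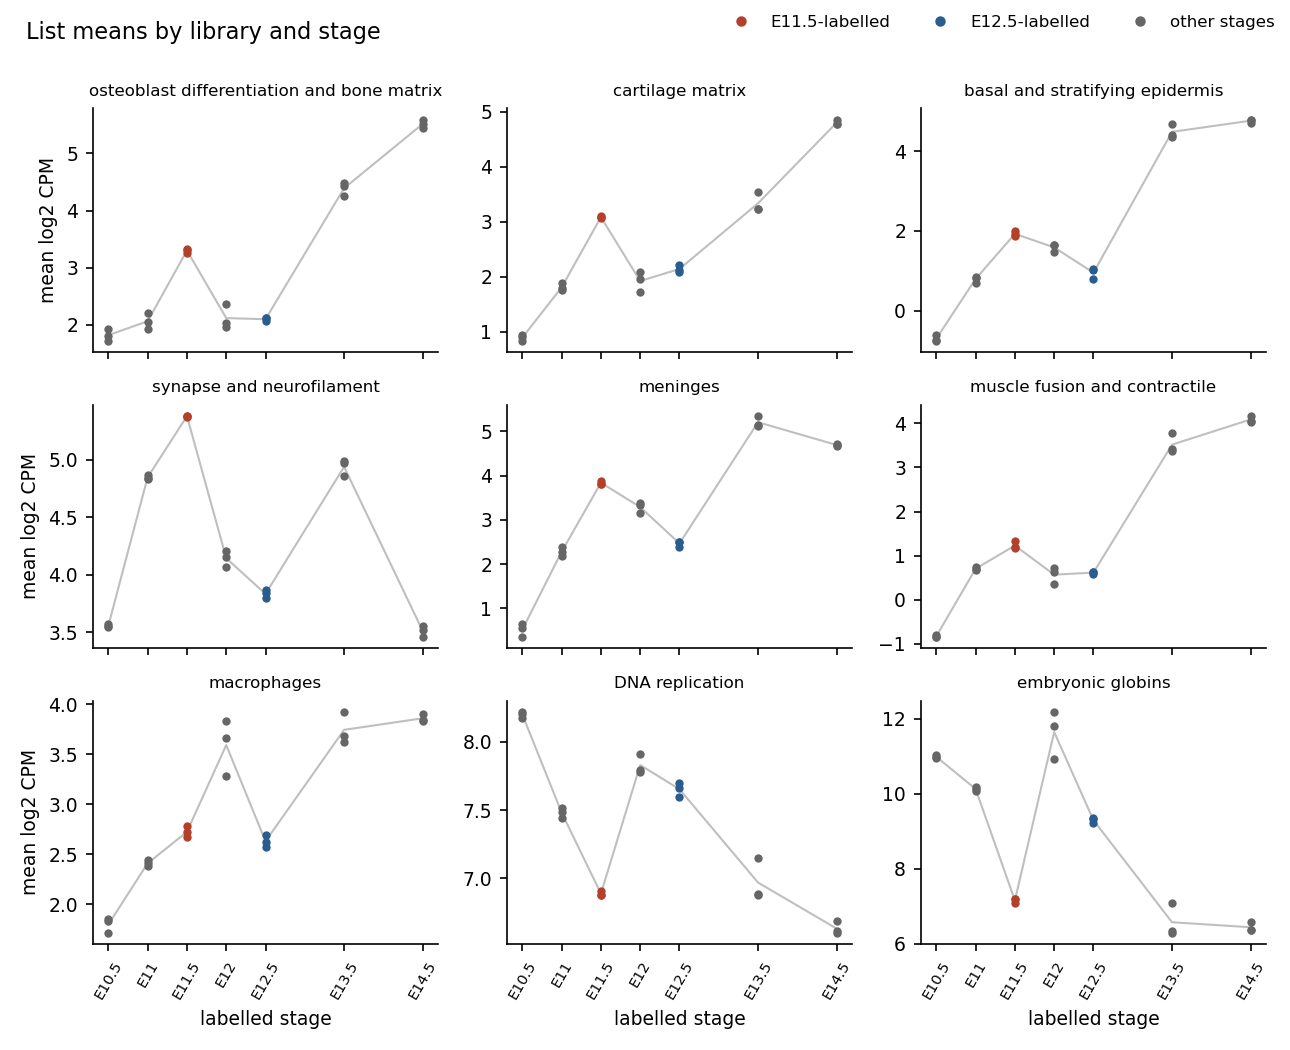
Mean log2 CPM of 9 lists in every library from E10.5 to E14.5 against labelled stage, with E11.5-labelled libraries in red, E12.5-labelled in blue, other stages in grey and the grey line through stage means. The E11.5-labelled points lie above both E12 and E12.5 for bone, cartilage, epidermis, synapse, meninges and muscle, and below both for DNA replication and embryonic globins.

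In neurons all genes of synapse and neurofilament were higher, and those of newborn neurons and progenitors less often. All 20 genes of synapse and neurofilament were higher, with a median of 1.57, under each setting tried. Of 12 genes of newborn neurons, 6 were higher and 2 lower (median 0.27, with 1 lower in most other settings), and of 12 neural progenitor genes, 1 was higher and 6 lower (median -0.33). The share of higher genes was thus smallest in progenitors and largest in the synapse and neurofilament list. That list is not simply a late one. Between E10.5 and E14.5, 10 of its 20 genes rose and 8 fell, and all 8 that fell were higher in the E11.5-labelled libraries. Its mean log2 CPM was 4.85 at E11, 5.38 in the E11.5-labelled and 3.83 in the E12.5-labelled libraries.

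Camk2b, a kinase of mature synapses, had 39.6, 40.2 and 43.6 CPM in the E11.5-labelled libraries, against 5.16, 4.26 and 5.69 CPM in the E12.5-labelled libraries, and rose by 3.03 ± 0.17 (adjusted p = 5.18e-14). The neurofilament gene Nefl had 36.6, 40.1 and 35.5 CPM in the E11.5-labelled and 8.83, 7.32 and 7.36 CPM in the E12.5-labelled libraries, without overlap, and rose by 2.25 ± 0.11. Doublecortin (Dcx), of migrating neurons, rose by 1.30 ± 0.19. Tubb3, a tubulin made from neuronal birth onwards, rose only by 0.52 ± 0.13, while the progenitor factors Sox2 fell by 0.61 and Emx2 by 0.76.

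Among the synapse genes, Gad2, Gad1 and Slc32a1, used by inhibitory neurons, were picked after their values were seen. Gad2, an enzyme of GABA synthesis, had 76.6, 73.1 and 73.8 CPM in the E11.5-labelled libraries and 19.8, 18.7 and 20.8 CPM in the E12.5-labelled libraries, and averaged 70.2 ± 1.42 CPM at E11, 9.12 ± 1.83 CPM at E13.5 and 3.56 ± 0.331 CPM at E14.5. It rose by 1.91 ± 0.11 (adjusted p = 2.03e-13), and Gad1 (2.14 ± 0.13) and the GABA carrier Slc32a1 (1.93 ± 0.19) also rose. The neuropeptide gene Sst, among the 12 largest rises, had 17.4, 17.7 and 17.4 CPM in the E11.5-labelled and 1.09, 1.04 and 0.890 CPM in the E12.5-labelled libraries, a rise of 4.11 ± 0.29. Sst averaged 5.31 ± 0.555 CPM at E11, 9.81 ± 3.72 CPM at E12, 10.3 ± 3.27 CPM at E13.5 and 0.670 ± 0.0978 CPM at E14.5. Of 20 synapse genes, 12 had a higher mean in the E11.5-labelled libraries than at E13.5. The mean log2 CPM of the list was 4.94 at E13.5 and 3.51 at E14.5, so it does not rise steadily with stage.

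The list of pharyngeal arch mesenchyme held 2 rises and 2 falls among 9 tested genes (median -0.28). Both rises, Lhx8 (3.50 ± 0.22) and Lhx6 (2.81 ± 0.17), are also genes of ventral forebrain neurons. Lhx6 had 29.2, 27.3 and 34.2 CPM in the E11.5-labelled libraries, against 4.59, 4.10 and 4.21 CPM in the E12.5-labelled libraries. Lhx8 averaged 12.8 ± 1.41 CPM in the E11.5-labelled and 1.14 ± 0.519 CPM in the E12.5-labelled libraries. It stood above both at E11 (16.1 ± 1.85 CPM) and E12 (14.8 ± 1.28 CPM), and at 4.87 ± 0.774 CPM at E13.5. Hand2, of lower arch mesenchyme, was at most 0.403 CPM in all 6 libraries, and Hand1 had 0 counts.

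Cortical markers moved less. Of 7 genes, 4 rose and 1 fell (median 0.49). Tbr1, of early cortical neurons, had 89.5, 86.0 and 83.5 CPM in the E11.5-labelled and 80.4, 81.0 and 73.4 CPM in the E12.5-labelled libraries and did not pass (0.14 ± 0.12, adjusted p = 0.405), while Bcl11b of deep-layer neurons rose by 0.49 ± 0.13. Midbrain and hindbrain regulators gave 3 rises and 5 falls among 14, with a median of 0.47 that was not stable, at -1.27 when the 6 libraries were fitted alone, -0.077 without E11.5 library b, 0.020 without E12.5 library c and 1.61 without E12.5 library b. Those of the midbrain boundary fell, with Pax5 at -2.68 ± 0.40, Pax2 at -2.26 ± 0.27 and the signal Fgf8 at -2.07 ± 0.27. The hindbrain gene Hoxa2 had 19 counts in the E11.5-labelled libraries together and 0 in the E12.5-labelled libraries, at least 6.12-fold higher, taking 3 counts over the group as the most a count of 0 allows.

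Sensory ganglion genes rose strongly, 6 of 7 tested, with 1 lower and a median of 1.76. Peripherin (Prph), an intermediate filament of peripheral neurons, had 32.2, 30.6 and 33.01 CPM in the E11.5-labelled and 3.33, 2.80 and 3.26 CPM in the E12.5-labelled libraries (3.35 ± 0.22, adjusted p = 2.65e-12). The groups lie far apart. The sodium channel gene Scn10a (chromosome 9, 119608456 to 119719322) had 6.42, 5.80 and 6.69 CPM in the E11.5-labelled libraries, against 0.229, 0 and 0.119 CPM in the E12.5-labelled libraries (5.72 ± 0.40). Of 10 Schwann cell precursor and glial genes, 4 rose and 0 fell (median 0.29), but 1 rose without E12.5 library c. S100b rose by 1.5003 ± 0.34, while the lineage factor Sox10 did not pass (0.30 ± 0.16, adjusted p = 0.165).

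In blood, embryonic globins were lower and adult beta globins higher. All 3 embryonic globins fell, with a median of -2.12, and 12 of 15 tested non-globin red cell genes fell with 1 higher and a median of -0.94. Of 4 adult globin genes, 2 rose and 0 fell (median 0.29). Globins in all took 0.278% to 0.297% of counts in the E11.5-labelled and 0.422% to 0.480% in the E12.5-labelled libraries.

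Hbb-bh1 (chromosome 7, 103841637 to 103843164), the earliest beta-like globin, had 16.6, 19.3 and 17.8 CPM in the E11.5-labelled libraries, against 163, 169 and 163 CPM in the E12.5-labelled libraries. The groups lie far apart, and its log2 fold change was -3.20 ± 0.18 (adjusted p = 3.15e-14). Hba-x (chromosome 11, 32276400 to 32278116), the embryonic alpha-like globin, had 119.6, 119 and 128 CPM in the E11.5-labelled and 549, 467 and 579 CPM in the E12.5-labelled libraries (-2.12 ± 0.18), and Hbb-y had 1288, 1338 and 1360.2 CPM in the E11.5-labelled and 2954, 2638 and 2991 CPM in the E12.5-labelled libraries (-1.11 ± 0.21). Adult Hbb-bs went the other way, with 393, 420.4 and 428 CPM in the E11.5-labelled libraries, against 108, 88.2 and 102 CPM in the E12.5-labelled libraries, a rise of 2.06 ± 0.25, and Hbb-bt rose by 0.88 ± 0.26. Adult alpha globins did not pass (Hba-a1 -0.38 ± 0.25, adjusted p = 0.268, and Hba-a2 -0.29 ± 0.37), although Hba-a1 passed as lower when the 6 libraries were fitted alone (-0.32, adjusted p = 0.000676) or no filter was used (-0.35, adjusted p = 0.00585). Reads of near-identical adult globin copies may have been split between genes.

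The red cell membrane genes fell with the embryonic globins. Slc4a1, the band 3 anion exchanger, had 17.5, 19.4 and 17.1 CPM in the E11.5-labelled libraries and 60.1, 57.6 and 67.9 CPM in the E12.5-labelled libraries (-1.78 ± 0.14). The Kell antigen (Kel, -2.72 ± 0.21) and protein 4.2 (Epb42, -2.12 ± 0.22) were among the 12 largest falls above 5 CPM. Hemgn, a nuclear protein of immature red cells, fell by 4.10 on 6 counts in the E11.5-labelled and 105 in the E12.5-labelled libraries. At E13.5, Slc4a1 stood at 9.32 ± 0.962 CPM. Tal1 alone rose (0.38 ± 0.13), and not without E11.5 library a (adjusted p = 0.174) or E12.5 library a (adjusted p = 0.206).

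Contractile muscle genes were higher or did not pass. Of 26 genes of fusion and contraction, 8 rose and 0 fell with a median of 0.59, and 18 did not pass. Fitted to the 6 libraries alone, 13 rose. Skeletal actin (Acta1) had 5.38, 5.39 and 4.90 CPM in the E11.5-labelled libraries and 1.38, 1.40 and 1.25 CPM in the E12.5-labelled libraries, rose by 1.95 ± 0.32 (adjusted p = 2.54e-05) and stood at 36.6 ± 7.33 CPM at E13.5. Embryonic myosin (Myh3) had 16.5, 17.1 and 16.1 CPM in the E11.5-labelled and 10.7, 10.2 and 12.9 CPM in the E12.5-labelled libraries and rose by 0.56 ± 0.15, against 72.9 ± 7.08 CPM at E13.5. Of 8 myogenic regulators, 3 rose and 2 fell (median 0.32, but -0.14 with the 6 libraries fitted alone and -0.16 with a stricter filter on low counts). Pax7 (-1.02 ± 0.18) and Pax3 (-0.71 ± 0.14), which precede muscle commitment and are neural genes as well, were lower, and the commitment genes Myod1 (0.84 ± 0.44, adjusted p = 0.158) and Myf5 (-1.21 ± 0.57, adjusted p = 0.122), near or under 1 CPM, did not pass.

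Several tissues gave few calls. Among 15 macrophage genes, 1 rose and 1 fell with a median of -0.10. The receptor Csf1r had 25.8, 25.6 and 26.2 CPM in the E11.5-labelled libraries and 27.4, 27.9 and 31.9 CPM in the E12.5-labelled libraries (-0.17 ± 0.13, adjusted p = 0.358), and the vessel-associated macrophage receptor Mrc1 had 45.4, 47.8 and 47.4 CPM in the E11.5-labelled and 44.5, 44.9 and 37.7 CPM in the E12.5-labelled libraries (0.15 ± 0.11, adjusted p = 0.373). Neither gene's groups overlap, but neither difference passed. The riser, Cd163 of resident macrophages, had 24 counts in the E11.5-labelled and 1 in the E12.5-labelled libraries. Of 4 microglial genes (median -0.19), 1 fell, Sall1 (-0.77 ± 0.12), which is also a mesenchymal and neural gene.

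Pigment cell genes gave 0 rises and 1 fall among 10 (median 0.07), and lens genes gave 0 calls among 14 with edgeR (median 0.00), 0 with DESeq2 and 0 at an unadjusted p below 0.05. Of the lens genes, 7 had at most 6 counts in either group. Mitf, the pigment cell regulator, had 6.48, 8.77 and 6.47 CPM in the E11.5-labelled libraries and 6.31, 5.30 and 4.63 CPM in the E12.5-labelled libraries (0.42 ± 0.19, adjusted p = 0.0923), and melanin enzyme Dct (-0.34 ± 0.16, adjusted p = 0.118) did not pass. For those 7 lens genes no difference was detectable at this depth. Retinal genes gave 3 rises of 6 and 0 falls (median 0.83), among them Rax (1.92 ± 0.39) and Six6 (1.18 ± 0.21), which are genes of the hypothalamus too.

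General vessel genes gave few calls. Of 13 endothelial genes, 1 rose and 3 fell with a median of -0.08, and with library totals alone 1 fell. The single riser, Sox18 (0.42 ± 0.15), did not pass without E11.5 library a, without E11.5 library c or without any one E12.5 library. Kdr had 54.0, 54.6 and 56.3 CPM in the E11.5-labelled and 59.0, 59.8 and 64.3 CPM in the E12.5-labelled libraries (-0.15 ± 0.13, adjusted p = 0.424). Genes of the blood-brain barrier behaved otherwise, with 5 of 7 higher and 1 lower (median 0.69), although 3 were higher when E11.5 library a or c, or any one E12.5 library, was left out. Slco1c1, the thyroid hormone carrier of brain endothelium, had 8.10, 6.20 and 8.21 CPM in the E11.5-labelled libraries, against 1.20, 1.71 and 1.72 CPM in the E12.5-labelled libraries (2.27 ± 0.26), and Slco1a4 rose by 2.96 ± 0.40. Mfsd2a, which keeps that barrier tight, did not pass (-0.16 ± 0.11), and the glucose carrier Slc2a1 fell by 0.38. Mural cell genes gave 3 rises and 3 falls among 9 (median 0.11), with the pericyte gene Rgs5 higher (0.78 ± 0.13) and the smooth muscle genes Tagln (-0.89 ± 0.16) and Acta2 (-0.52 ± 0.12) lower.

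The choroid plexus gave 4 rises and 1 fall among 9 (median 0.67), with 7 rises when the 6 libraries were fitted alone and 2 without E11.5 library a, without E11.5 library b, without E12.5 library a or without E12.5 library c. Its main product transthyretin (Ttr) had 459.8, 472 and 466 CPM in the E11.5-labelled libraries and 184, 172 and 183 CPM in the E12.5-labelled libraries, without overlap, and rose by 1.38 ± 0.18 (adjusted p = 1.32e-06).

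Regulators of frontonasal mesenchyme were lower, 6 of 6, with a median of -0.93. Alx1, a homeobox gene of the frontonasal skeleton, had 14.8, 14.2 and 13.6 CPM in the E11.5-labelled libraries, against 40.7, 42.5 and 36.8 CPM in the E12.5-labelled libraries, and fell by 1.496 (adjusted p = 1.25e-10). Six2 had 22.9, 23.7 and 25.1 CPM in the E11.5-labelled and 55.4, 50.9 and 53.6 CPM in the E12.5-labelled libraries (-1.16 ± 0.12), and Tfap2b, a neural crest factor, 21.3, 21.6 and 20.3 CPM in the E11.5-labelled and 41.0, 47.5 and 40.1 CPM in the E12.5-labelled libraries (-1.03 ± 0.13). None of these groups overlap. Six2 then stood at 80.8 ± 19.5 CPM and Alx1 at 36.0 ± 4.73 CPM at E13.5. Each of the 6 genes had a lower mean in the E11.5-labelled libraries than at E13.5. Alx1 was at 30.1 ± 0.469 CPM at E11 and 50.6 ± 8.47 CPM at E12. Among the 12 largest falls were the signals Fgf8 and Fgf17, with Fgf8 at 2.20, 1.51 and 1.16 CPM in the E11.5-labelled libraries and 7.80, 6.28 and 6.23 CPM in the E12.5-labelled libraries, and Fgf17 at 5.09, 8.57 and 7.42 CPM in the E11.5-labelled and 28.6, 22.8 and 28.4 CPM in the E12.5-labelled libraries (-1.91 ± 0.16).

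Genes of proliferation were lower throughout. All 13 DNA replication genes (median -0.78) and all 11 mitosis genes (median -0.62) fell, and 0 of either rose. The helicase gene Mcm3 had 137, 138 and 147 CPM in the E11.5-labelled libraries and 277, 261 and 278 CPM in the E12.5-labelled libraries and fell by 0.95 (adjusted p = 1.65e-11), and the replication licensing gene Cdc6 fell by 0.98. The mitotic kinase gene Aurka had 43.9, 44.4 and 48.1 CPM in the E11.5-labelled and 80.4, 88.7 and 87.2 CPM in the E12.5-labelled libraries and fell by 0.91. Inhibitors of the cell cycle did not rise with this, since among 5 genes 0 were higher and 1 lower (median 0.17), and Cdkn1c had 285, 289.7 and 304 CPM in the E11.5-labelled and 264, 228 and 273 CPM in the E12.5-labelled libraries (0.20 ± 0.13, adjusted p = 0.291). Fitted to the 6 libraries alone, 3 of the 5 were higher.

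Genes of early embryonic cells fell as well, 10 of 12 with 0 higher and a median of -0.53. Hmga2 (chromosome 10, 120361275 to 120476469), a chromatin protein of embryonic growth and a let-7 target, had 56.2, 52.3 and 51.9 CPM in the E11.5-labelled libraries, against 195, 214 and 178 CPM in the E12.5-labelled libraries. It fell by 1.87 (adjusted p = 3.27e-13) to a level near its 60.4 ± 9.89 CPM at E13.5. Sall4, of pluripotent and early cells, had 2.20, 2.82 and 2.74 CPM in the E11.5-labelled and 6.77, 6.80 and 7.41 CPM in the E12.5-labelled libraries (-1.43 ± 0.17), and Trim71, a developmental timing gene, fell by 1.00. The let-7 blockers were less clear. Lin28a had 0.289, 0.706 and 0.474 CPM in the E11.5-labelled and 1.84, 0.571 and 1.01 CPM in the E12.5-labelled libraries, which overlap (-1.16 ± 0.32), and its adjusted p was 0.246 without E12.5 library a, 0.0510 without E11.5 library a and 0.0654 with the 6 libraries fitted alone. Lin28b had 19.2, 16.6 and 16.4 CPM in the E11.5-labelled and 22.1, 24.3 and 19.0 CPM in the E12.5-labelled libraries (-0.33 ± 0.10), and did not pass under several settings, with an adjusted p of 0.161 under library totals alone and 0.0973 without E12.5 library b.

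Glycolysis genes were mostly lower, 14 of 21 with 2 higher and a median of -0.52. Lactate dehydrogenase A (Ldha) had 443, 448 and 464 CPM in the E11.5-labelled libraries and 847, 762 and 853 CPM in the E12.5-labelled libraries and fell by 0.86 (adjusted p = 2.92e-06), and the lactate exporter Slc16a3 fell by 1.35. Hexokinase 2 (Hk2) fell by 1.02. Both rises were of isoforms that the brain expresses, the phosphofructokinase Pfkp (1.26 ± 0.14) and the aldolase Aldoc (0.51 ± 0.11). Gapdh has many processed copies and its counts are uncertain. Of 10 genes of citrate handling (median -0.22), 1 rose, the carrier Slc13a3 (1.4997 ± 0.36), and 3 fell, with citrate synthase (Cs) at -0.41 ± 0.07. The citrate carrier Slc13a5, which rose as described above with bone, is not among these 10. Of 13 genes of the mitochondrial genome, 0 passed in the main edgeR fit (median -0.02) and 0 had an unadjusted p below 0.05 there. With DESeq2, with library totals alone or without the E12 libraries, 1 was higher. With the 6 libraries fitted alone or with no filter on low counts, 2 were higher. Mitochondrial genes took 1.04% to 1.16% of counts in the E11.5-labelled and 0.798% to 1.22% in the E12.5-labelled libraries.

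Immediate early genes respond within minutes to stimulation, handling included. Of 10 genes of that kind or of heat shock, 3 were lower and 0 higher (median -0.39). Fos had 0.636, 1.92 and 0.526 CPM in the E11.5-labelled libraries, against 4.42, 3.89 and 4.45 CPM in the E12.5-labelled libraries, without overlap, and fell by 2.02 (adjusted p = 1.69e-05). Egr1 fell by 1.33 and Jun by 0.41, and the part of this in other results was not tested.

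Rare cells gave calls on few counts. Of 6 tested mast cell genes 3 rose (median 2.05), with summed levels of 3.95 to 5.34 CPM in the E11.5-labelled and 1.898 to 3.17 CPM in the E12.5-labelled libraries. Tpsb2, a mast cell protease gene, had 16 counts in the E11.5-labelled and 0 in the E12.5-labelled libraries, at least 5.19-fold higher. Of 4 tested trunk Hox genes 2 rose (median 2.99), and Hoxa5 had 16 counts in the E11.5-labelled and 0 in the E12.5-labelled libraries, at least 5.03-fold higher on the same floor. Of 6 tested osteoclast genes 2 rose and 1 fell (median 0.53). Mmp9 rose by 1.63 ± 0.30 and Acp5, the tartrate-resistant phosphatase, fell by 2.08, while Ctsk did not pass (0.29 ± 0.17, adjusted p = 0.207). Of 5 tested liver and yolk sac genes (median 0.14) 1 rose, Trf (0.56 ± 0.13), and albumin and alpha-fetoprotein had at most 3 counts in either group.

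Ratios of a late to an early gene of the same lineage, taken within each library, do not depend on how much of a tissue a sample held if both genes come from the same cells. Of 17 ratios tested, 11 were higher in all 3 E11.5-labelled libraries than in any E12.5-labelled one, 1 was lower in all 3, and 5 overlapped. With 3 libraries against 3, an exact two-sided permutation test cannot go below p = 0.1, and the 12 ratios without overlap had p = 0.1 and a Benjamini-Hochberg adjusted p of 0.142.

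Ibsp per Runx2 was 1.01, 1.23 and 1.42 in the E11.5-labelled libraries, against 0.00778, 0.0169 and 0.0148 in the E12.5-labelled libraries, 83.8-fold higher. Matn1 per Sox9 was 0.260, 0.233 and 0.189 in the E11.5-labelled and 0.00580, 0.00633 and 0.0109 in the E12.5-labelled libraries, 29.2-fold higher. With 1 CPM added to each gene the log2 differences were 4.02 for Ibsp per Runx2 and 3.58 for Matn1 per Sox9, in place of 6.39 and 4.87. The E12.5-labelled libraries together held 11 counts of Ibsp and 33 of Matn1. Acan per Sox9 was 7.56-fold and Sp7 per Runx2 4.75-fold higher. Sp7 per Runx2 did not climb steadily with the label, as it averaged 1.35 ± 0.143 at E10.5, 0.0992 ± 0.0255 at E11 and 0.850 ± 0.0866 at E14.5. Adult per embryonic beta globins gave 0.425, 0.430 and 0.447 in the E11.5-labelled libraries and 0.0658, 0.0614 and 0.0636 in the E12.5-labelled libraries, 6.83-fold higher, and the alpha globins 3.36-fold. At E13.5 the beta globin ratio was 0.902 ± 0.0405.

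In skin, Krt14 per Krt18 was 2.35, 2.38 and 2.56 in the E11.5-labelled and 0.740, 0.848 and 0.667 in the E12.5-labelled libraries, 3.24-fold higher. Decorin per Pdgfra, in fibroblasts, was 2.05-fold higher. The neuronal ratios were smaller, with Snap25 per Tubb3 1.596-fold, Nefm per Dcx 1.48-fold and Tbr1 per Eomes 1.06-fold higher. These ratios did not climb steadily with the label. Nefm per Dcx averaged 1.37 ± 0.0956 at E10.5, 0.2499 ± 0.0187 at E11 and 0.436 ± 0.0859 at E12, all above its 0.125 ± 0.00456 in the E11.5-labelled libraries. Tbr1 per Eomes averaged 1.11 ± 0.00882 at E11 and 1.49 ± 0.185 at E12, against 0.823 ± 0.0218 in the E11.5-labelled libraries. The ratio that was lower, Mfsd2a per Cdh5 in vessels, was 0.303, 0.298 and 0.316 in the E11.5-labelled libraries and 0.477, 0.471 and 0.394 in the E12.5-labelled libraries. This vessel ratio averaged 0.389 ± 0.0119 at E10.5, 0.720 ± 0.336 at E12, 0.154 ± 0.0282 at E13.5 and 0.0464 ± 0.00272 at E14.5. A lower value thus lay towards its levels at E13.5 and E14.5, although its course was not steady.

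Overlapping ratios came from several lineages. In macrophages C1qa per Csf1r was 0.296, 0.236 and 0.261 in the E11.5-labelled and 0.268, 0.210 and 0.177 in the E12.5-labelled libraries (exact p = 0.3). In pigment cells Tyr per Mitf gave exact p = 0.3, in muscle Myh3 per Myod1 p = 0.4 by the same exact test and in suprabasal skin Krt1 per Krt14 exact p = 0.7. Tests of this size do not show that these lineages stood equally far.

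**Figure D5:**
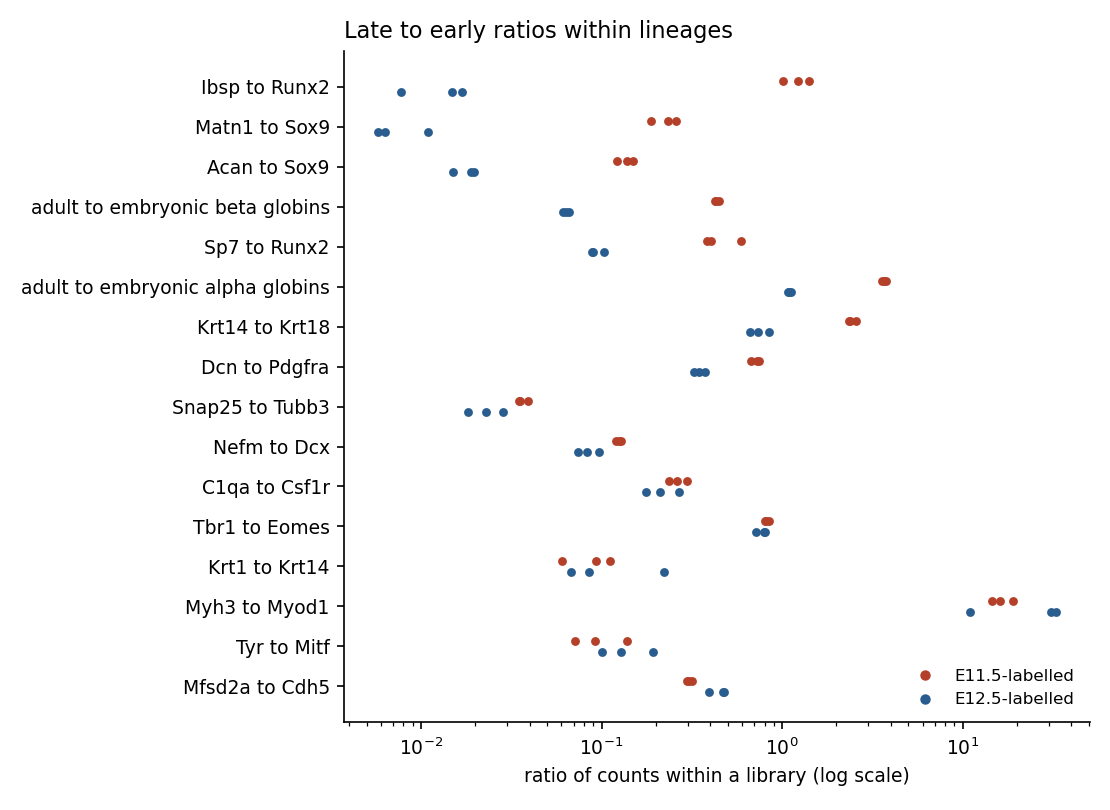
Count ratio of a late to an early gene of the same lineage in each library, on a log axis, for 16 of the 17 ratios tested, with E11.5-labelled libraries in red and above E12.5-labelled libraries in blue. The red points of Ibsp to Runx2 lie at 1.01 to 1.42 and the blue at 0.00778 to 0.0169.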

How the data were processed

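PolyA RNA of mouse embryonic frontal bone was sequenced by the submitters. The deposited values are raw counts per gene, made by the authors with cutadapt 1.9.1, HISAT2 2.0.1 and HTSeq 0.6.1 on GRCm38, per the submitters' processing notes. For the annotation release and strand setting, the sources used here give nothing, so overlapping and antisense genes cannot be told apart. Of 55401 genes, 55141 were paired with a symbol and 260 were not.

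Counts of all 33 libraries were fitted with edgeR 4.0.16 (quasi-likelihood, TMM scaling, filterByExpr, 1 mean a stage, 22 residual degrees of freedom) in R 4.3.3. The filter left 20073 genes, over which Benjamini-Hochberg adjusted p-values below 0.05 passed. Each standard error is the fold change over the square root of F and is approximate. Log2 CPM used a prior count of 2, and ratios had 0.5 counts added. DESeq2 1.42.0, other scalings, filters and sets of libraries were alternatives. The procedure was also tested on simulated data.

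The 45 lists hold 498 entries, of which 473 were tested, 25 were not and 2 of these matched no identifier. The comparison and the lists were chosen with earlier results of these data known, so a list's direction is not independent evidence. Genes named are the 12 largest rises and falls without overlap among genes of at least 5 CPM, up to 4 passing members of each list in each direction, fixed bone and globin genes and the genes of ratios. Others, among them members that did not pass such as Kdr and Dct, were added after their values were seen. Library letters are column names, and replicate numbers of the labels were not tied to them. Intervals and floors cover counting error only. Values of 8 genes are not reported here, and those genes are also left out of the counts of single-gene checks under other settings.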

Additional observations from a re-analysis of the deposited data

How the results depend on the processing

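No gene passed in opposite directions in any of the 15 alternatives, and the cause of each shift below was not tested. Higher genes numbered 3778 with the 6 libraries fitted alone, and lower genes 1698 with library totals alone. Leaving out 1 library gave 2012 to 2121 higher and 2385 to 2630 lower genes. A fit without the E12 libraries, chosen after seeing the data, passed 6718 genes. Column letters did not pair the libraries (correlations of same-letter deviations -0.063, 0.091 and 0.290), and with a replicate block on the letter 2395 genes were higher and 2918 lower. With a course from E10.5 to E13.5, 154 falling genes were higher. With a course from E11, 595 rising genes were higher, 653 falling genes higher and 314 falling genes lower. With a course of at least 4-fold, 591 rising genes were higher and 68 lower, and 151 falling genes were higher and 164 lower. With totals alone, 353 falling genes were lower. The log2 ratio difference turned to 0.14 for Myh3 per Myod1 with 1 CPM added. Leaving out 1 library, it ran for Krt1 per Krt14 from -0.69 to 0.15, so that both signs occur. Of 2763 checks of single named genes, 2571 kept direction and call, 188 lost the call, 2 gained it and 2 changed sign. Those 2 were of genes that did not pass, and on leaving out 1 library their log2 fold changes ran from -0.53 to 0.026 (P2ry12) and -0.0048 to 0.21 (Alpl). The trunk Hox list gave no value with the 6 libraries alone, since none of its genes was then tested. Medians of the endothelial, liver and yolk sac, macrophage, mitochondrial genome, pigment cell and tendon lists, all between -0.10 and 0.14, changed sign under at least 1 setting, and many list counts of 3 or fewer moved by 1 to 3 genes.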
